A study of Mus musculus with 6 samples.

Results

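Serum response factor (SRF) is a transcription factor that binds the CArG box, a short DNA motif with an A/T-rich core, near genes of the actin cytoskeleton. Its myocardin-related cofactors are held back by monomeric actin and enter the nucleus when actin polymerizes, so that SRF targets follow the state of the cytoskeleton. A separate class of cofactors, the ternary complex factors (TCFs), is phosphorylated by ERK and links SRF to immediate-early genes. YAP, the coactivator restrained by the Hippo pathway, also responds to actin tension, and some genes are targets of both YAP and SRF.

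The genes examined here were 10 members of the SRF-driven actin program, found by symbol among the 35027 genes of the deposited table. They are Srf itself, the contractile genes Acta2, Tagln, Myl9, Cnn1 and Cnn2, the tropomyosin genes Tpm1 and Tpm2, and the focal adhesion genes Vcl and Zyx. They were compared between 2 genotypes of mouse thyroid tumor, in cells sorted for Kate, a red fluorescent protein made from the same allele as the dox-dependent transactivator rtTA. YAP mice carried a Cre recombinase active in thyroid follicular cells, the rtTA and Kate allele (RIK), and a tetO-driven YAP transgene with the S127A change, which keeps YAP in the nucleus. BrafYAP mice carried all of these together with LSL-Braf, a Cre-activated Braf allele with the V600E change, which activates ERK signaling. Both groups therefore carried inducible mutant YAP and received dox chow, started at 4 weeks of age by the labels, and cells without mutant YAP were not analysed here.

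Each genotype had 3 libraries, numbered 1, 2 and 3 for YAP and 1, 2 and 6 for BrafYAP, with about 20000 sorted cells in each. By the labels a YAP library was a pool of 3 tumors and a BrafYAP library was 1 tumor, so that pooling and genotype cannot be told apart. The study's methods instead take each replicate as a single tumor of one mouse, and the labels were followed. If the methods hold, the spread of the YAP libraries is one between tumors, not between pools. Depth ranged from 26.3 to 37.6 M recovered reads per library. Levels are given as scaled reads, the reads behind each deposited value on the authors' scaling between libraries. In such bulk RNA, fewer cells that express a gene and less RNA per cell cannot be told apart. BrafYAP replicate 6 stood apart from its group. Across the 7319 genes with a mean deposited value of at least 1 it correlated with the other BrafYAP libraries at a Pearson r of 0.866 to 0.879, whereas these correlated with each other at 0.979 (across genes, which are not replicates). The YAP libraries correlated with each other at 0.874 to 0.942. The lowest value was that of YAP replicates 1 and 2, which by this measure were about as unlike. Yap1, the mouse gene of YAP, was at 264 scaled reads in BrafYAP replicate 6, while the other BrafYAP libraries had 1368 and 1466 and the YAP libraries 781 to 907. Reads were aligned to the mouse genome, and whether this count includes the YAP transgene is not known. Whether mutant YAP was expressed alike in that library was not tested.

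SRF binding motifs in the members' promoters are shown first, since the members are grouped by this factor. Promoters came from RefSeq on GRCm38.p6 (mm10), and 9 of the 10 members matched an entry, with Tagln the member without one. A CArG box, CC, then 6 letters that are A or T, then GG, was found within 250 bases before the start in 4 of the 9, against 1.47% of 32851 promoters searched the same way. The motif reads as a CArG box on both strands. The sequences run 5′ to 3′ on the gene's own strand, and capitals mark the CArG boxes and, in Myl9, also a copy in which 1 letter of the A/T run is C or G.
Srf, chr17:46556190-46556269, minus strand: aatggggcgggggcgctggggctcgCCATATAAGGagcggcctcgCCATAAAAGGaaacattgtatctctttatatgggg
Myl9, chr2:156775278-156775399, plus strand: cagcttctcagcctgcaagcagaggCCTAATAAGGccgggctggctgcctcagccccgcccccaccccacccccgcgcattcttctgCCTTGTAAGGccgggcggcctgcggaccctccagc
Cnn2, chr10:79988519-79988578, plus strand: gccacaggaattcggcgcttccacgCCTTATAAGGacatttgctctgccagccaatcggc
Vcl, chr14:20929148-20929205, plus strand: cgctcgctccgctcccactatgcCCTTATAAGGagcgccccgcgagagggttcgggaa
Srf itself held 2 boxes, starting 82 and 62 bases before its start. The box of Cnn2 began 56 bases, that of Myl9 161 bases and that of Vcl 227 bases before the start.

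The copy with 1 C or G in the A/T run was present in 2 of the 9 promoters, Acta2 and Myl9, against 7.24% of all promoters. The sites of Acta2 lie inside an exon of the GENCODE annotation, so only 30 bases around each are shown, with the site in capitals.
Acta2, chr19:34255438-34255467, minus strand: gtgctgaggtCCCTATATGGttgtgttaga
Acta2, chr19:34255388-34255417, minus strand: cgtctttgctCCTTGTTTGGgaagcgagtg
These began 84 and 34 bases before the RefSeq start. GGAATG, the motif bound by the TEAD partners of YAP, was searched on both strands and was found in Acta2, Tpm1 and Vcl, 3 of 9 members, against 12.6% of all promoters. None of the 3 motifs occurred in these windows of Cnn1, Tpm2 or Zyx. A match describes the letters only, and the promoters with a CArG box include members whose groups were separate and members whose groups overlapped, as the values show.

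In BrafYAP cells the smooth muscle-type members Cnn1, Acta2 and Myl9 and the tropomyosin gene Tpm2 were at lower levels in every library than in YAP cells, and the mean of Zyx was higher. Only Cnn1 passed the threshold of the test across all genes. It entered that test through its YAP levels, and on scaled reads, where all 10 members were tested, none passed. On scaled reads, each BrafYAP library was below each YAP library for 4 of the 10 members, Acta2, Myl9, Cnn1 and Tpm2, against 17.1% of all 16841 genes tested. Their fold differences between the group means ran from 2.0 to 12.3. The groups overlapped for the other 6 members, among them Tagln, which is also of smooth muscle type. The plot of reads by library shows both the separated members and the low position of BrafYAP replicate 6.

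**Figure D1:**
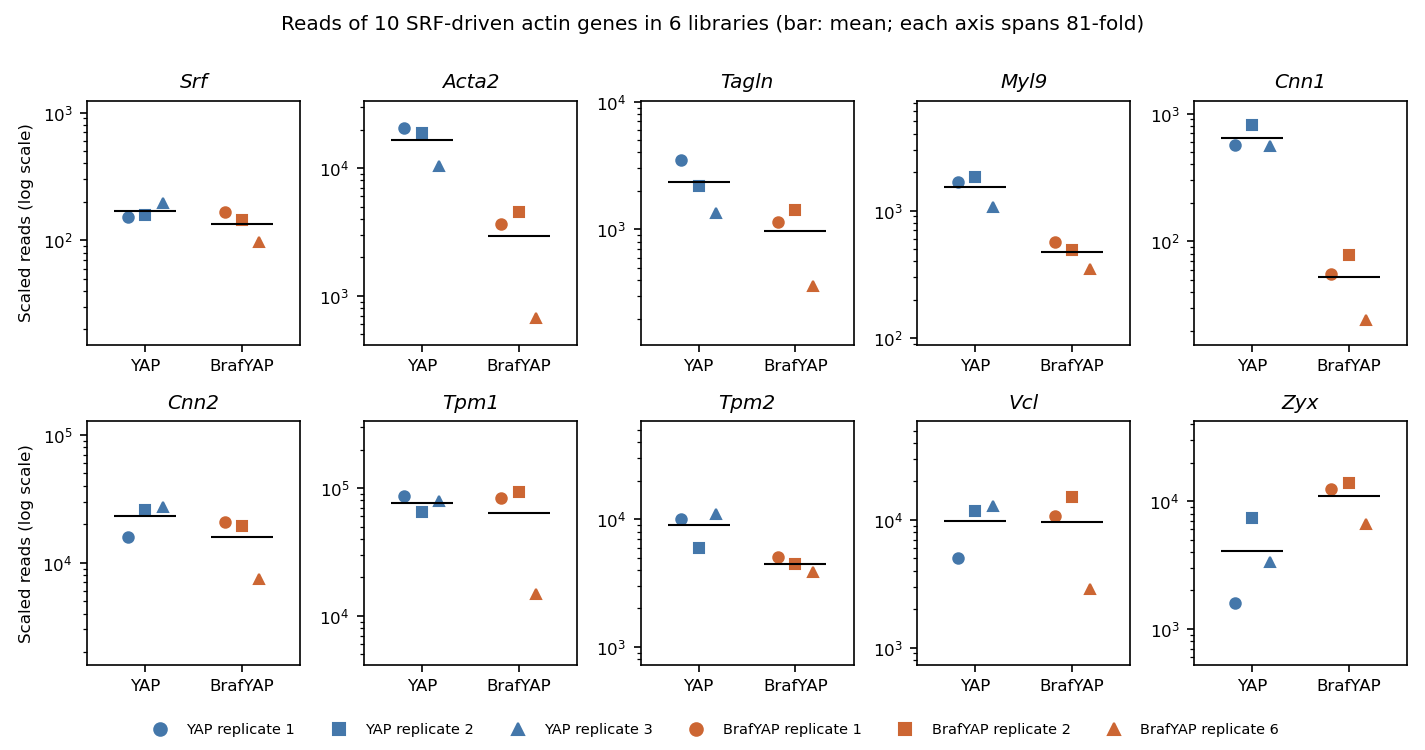
Scaled reads of each member (log axis, each panel spanning the same fold range) in 3 YAP and 3 BrafYAP libraries, with a symbol per replicate and a bar at the group mean. Acta2, Myl9, Cnn1 and Tpm2 do not overlap between the groups, and BrafYAP replicate 6 is the lowest of the 6 libraries for 9 of the 10 genes.

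Srf, the factor itself (chromosome 17, 46548329 to 46556175, minus strand, mm10), had the fewest reads of the members when averaged over all libraries. It had 152, 159 and 195 scaled reads in YAP replicates 1, 2 and 3, and 165, 144 and 96 in BrafYAP replicates 1, 2 and 6. The groups overlapped, and only BrafYAP replicate 6 was below the YAP range by more than a few reads. The group means were 169 ± 22.8 for YAP and 135 ± 35.5 for BrafYAP (SD, n = 3 each). Its mean deposited value, 0.642, was under the minimum of 1, so it was tested on log2(scaled reads + 1), where the log2 fold change was -0.34 (SE 0.36, limma adjusted p = 0.614). Srf overlaps Gm26904 on the other strand, and no strand was stated for the counting.

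Cnn1, which encodes smooth muscle calponin, an actin-binding protein of contractile cells (chromosome 9, 22099216 to 22109630), was the member that differed most. It had 569, 811 and 560.3 scaled reads in the YAP libraries and 55, 78 and 24 in BrafYAP replicates 1, 2 and 6. Every YAP library was several times above every BrafYAP library, and the means were 647 ± 142 (SD, n = 3) and 52.6 ± 27.4 (SD, n = 3), 12.3-fold apart. On log2(value + 1), where low values are compressed, Cnn1 fell by 1.38 (SE 0.18, limma adjusted p = 0.0468), and it was 1 of 18 genes past the threshold, 0.246% of the 7319 tested. It passed the minimum, with a mean value of 1.11, only through the YAP libraries. The call held without YAP replicate 2 and was lost on leaving out any other single library, with limma adjusted p-values of 0.0362 to 0.217 over these 6 fits. On log2(scaled reads + 1), a scale on which its reads in either group would pass the minimum of 10, the log2 fold change was -3.73 (SE 0.49) and the limma adjusted p was 0.0547. On that scale 0 of 16841 genes (0%) passed the threshold, while 3403 had an unadjusted limma p under 0.05.

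Acta2, the alpha-actin of smooth muscle and myofibroblasts (chromosome 19, 34241090 to 34255590, minus strand), came next. It had 20670.3, 18985 and 10391 scaled reads in the YAP libraries and 3648, 4559.8 and 672 in BrafYAP replicates 1, 2 and 6. No BrafYAP library reached the lowest YAP library, and within BrafYAP the highest library was 6.79 times the lowest. The means, 16682 ± 5513 and 2959.8 ± 2033 (SD, n = 3 each), were 5.64-fold apart (log2 fold change on log2(value + 1) -2.54, SE 0.60, limma adjusted p = 0.0953). Without BrafYAP replicate 6 the log2 fold change was -1.86.

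Myl9, the regulatory myosin light chain whose phosphorylation by myosin light chain kinase drives contraction (chromosome 2, 156775420 to 156781658), separated the groups with less spread. Its YAP libraries had 1666, 1841 and 1067 scaled reads, and BrafYAP replicates 1, 2 and 6 had 571, 495 and 349.9. The groups were separate, and replicate 6 was close to the other BrafYAP libraries. Means of 1525 ± 406 and 472 ± 112 (SD, n = 3 each) differed 3.23-fold (log2 fold change -1.36, SE 0.27, limma adjusted p = 0.0854).

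Tagln, which encodes transgelin (SM22-alpha), an actin-bundling protein (chromosome 9, 45929619 to 45936058, minus strand), had 3503, 2167 and 1343 scaled reads in the YAP libraries. BrafYAP replicates 1, 2 and 6 had 1136, 1427 and 361. The groups overlapped through YAP replicate 3 and BrafYAP replicate 2. The log2 fold change was -1.16 (SE 0.49, limma adjusted p = 0.252), and without BrafYAP replicate 6 it was -0.69. Tagln overlaps Pcsk7 on the other strand, with which it can share reads.

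Cnn2, the calponin of nonmuscle cells (chromosome 10, 79988584 to 79996062), had 16003, 25785 and 27293 scaled reads in YAP and 21014, 19318 and 7434 in BrafYAP replicates 1, 2 and 6. BrafYAP replicates 1 and 2 lay within the YAP range and replicate 6 lay below it. The log2 fold change was -0.62 (SE 0.46, limma adjusted p = 0.473), and -0.15 without replicate 6.

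Both calponins are counted in the same library, so their ratio does not depend on the scaling between libraries. Cnn1 had 3.55, 3.14 and 2.05 reads per 100 reads of Cnn2 in YAP replicates 1, 2 and 3, and 0.264, 0.406 and 0.323 in BrafYAP replicates 1, 2 and 6. The ratio separated the groups, and replicate 6 was in the middle of its group. The log2 ratio averaged -5.14 ± 0.42 for YAP and -8.26 ± 0.31 for BrafYAP (SD, n = 3 each), and the difference was -3.12 (exact permutation test, two-sided, p = 0.1, adjusted over 3 ratios 0.15). With 3 libraries against 3, 0.1 is the smallest p this test allows. Acta2 was set against Actb, the cytoplasmic beta-actin, in the same way. It had 7.46, 3.67 and 1.67 reads per 100 reads of Actb in the YAP libraries and 0.688, 0.926 and 0.315 in the BrafYAP libraries. These groups were also separate, by -2.61 on the log2 scale (exact permutation p = 0.1, adjusted 0.15), although the YAP libraries spread widely (-4.81 ± 1.08 against -7.42 ± 0.80, SD, n = 3 each).

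**Figure D2:**
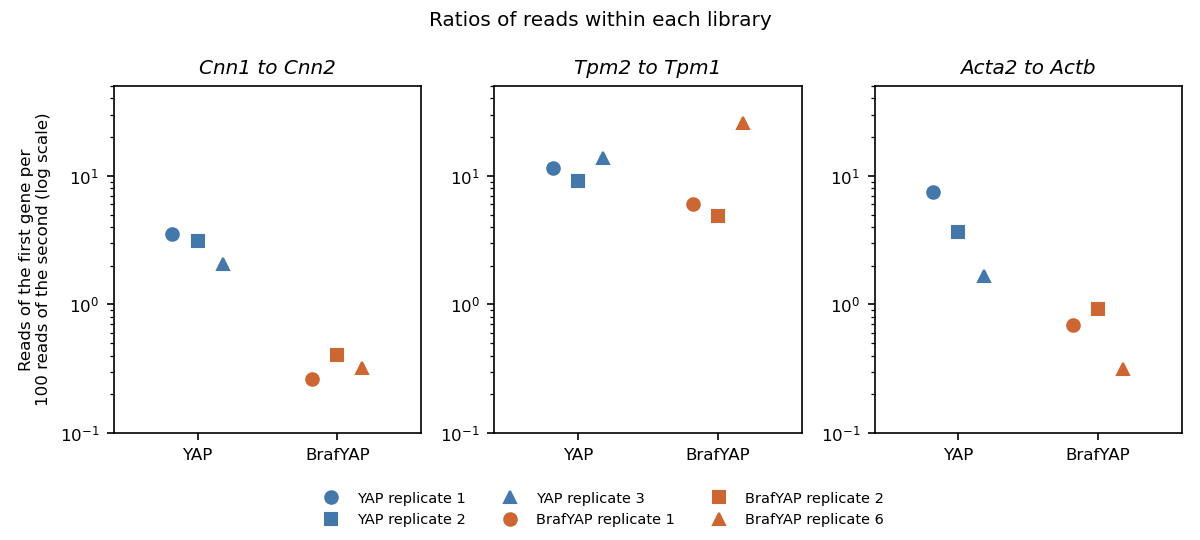
Reads of the first gene per 100 reads of the second within each library (log axis), for 3 pairs, with a symbol per replicate. Cnn1 to Cnn2 and Acta2 to Actb separate the genotypes, whereas Tpm2 to Tpm1 is highest in BrafYAP replicate 6, at 26.0, and low in BrafYAP replicates 1 and 2.

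Tropomyosins lie along the actin filament and set which motors and severing proteins reach it. Tpm2 (chromosome 4, 43514711 to 43523765, minus strand) had 9993, 5989 and 10919 scaled reads in the YAP libraries and 5064, 4484 and 3876 in BrafYAP replicates 1, 2 and 6. The groups did not overlap, but YAP replicate 2 was near the highest BrafYAP library. Means of 8967 ± 2620.3 and 4475 ± 594 (SD, n = 3 each) differed 2.0-fold (log2 fold change -0.92, SE 0.30, limma adjusted p = 0.158).

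Tpm1 (chromosome 9, 67022590 to 67049406, minus strand) had 85961, 65563 and 79891 scaled reads in YAP and 83472, 92496 and 14885 in BrafYAP replicates 1, 2 and 6. BrafYAP replicates 1 and 2 were in the upper part of the YAP range or above it, and replicate 6 was far below it. The log2 fold change was -0.64 (SE 0.67, limma adjusted p = 0.618) with all libraries and 0.20 without replicate 6, so its direction rested on that library. The ratio of Tpm2 to Tpm1 was 11.6, 9.13 and 13.7 reads per 100 in YAP and 6.07, 4.85 and 26.0 in BrafYAP, with overlapping groups (log2 difference -0.31, exact permutation p = 0.8, adjusted 0.8). This difference was -1.06 without BrafYAP replicate 6 and 0.15 without BrafYAP replicate 2.

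The focal adhesion members were Vcl and Zyx, and neither passed the test. Vcl encodes vinculin, which links integrin adhesions to actin (chromosome 14, 20929398 to 21033676). It had 5051, 11645 and 12919.8 scaled reads in YAP and 10734, 15116 and 2864 in BrafYAP replicates 1, 2 and 6. The means were 9872 ± 4223 and 9571 ± 6208 (SD, n = 3 each), and the log2 fold change was -0.12 (SE 0.47, limma adjusted p = 0.910), or 0.35 without replicate 6. The low libraries were YAP replicate 1 and BrafYAP replicate 6, one in each group. Vcl overlaps Ap3m1 on the other strand.

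Zyx encodes zyxin, a LIM protein that is recruited to adhesions and stress fibers under tension (chromosome 6, 42349630 to 42360213). It was the one member with more reads in BrafYAP cells. YAP replicates 1, 2 and 3 had 1586, 7386 and 3343 scaled reads, and BrafYAP replicates 1, 2 and 6 had 12561, 13902 and 6668. The groups touched only where YAP replicate 2 exceeded BrafYAP replicate 6. Means of 4105 ± 2974 and 11044 ± 3849 (SD, n = 3 each) differed 2.69-fold. The log2 fold change on log2(value + 1) was 1.52 (SE 0.54, limma adjusted p = 0.186). The size rested on the YAP libraries, at 1.03 without YAP replicate 1 and 2.04 without YAP replicate 2. YAP replicate 1 was also low in Pfn1, the actin monomer-binding profilin, with 1936 reads against 47307 and 14709 in YAP replicates 2 and 3. Zyx overlaps Epha1 and Gm44284 on the other strand.

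Over the 10 members, 9 had a negative and 1 a positive log2 fold change on scaled reads, with a median of -0.81 against -0.12 for all 16841 genes tested. Rescaling the libraries by median ratios moved the median of all genes to 0.01, a shift of 0.12. On log2(value + 1), with Srf on scaled reads, the members' median was -0.42 without BrafYAP replicate 6. Without that library and YAP replicate 1 it was -0.38 on the same scale. At an unadjusted limma p under 0.05, 4 members were lower (Acta2, Myl9, Cnn1 and Tpm2) and 1 was higher (Zyx). These counts were the same on both scales. The background was 9.17% of 7319 genes lower and 10.7% higher on log2(value + 1), and 10.5% lower and 9.68% higher of 16841 genes on log2(scaled reads + 1). Without both libraries, 4 members had an unadjusted p under 0.05 and 0 passed the adjusted threshold. The background above is for all 6 libraries, and the share of all genes without both is not given.

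**Figure D3:**
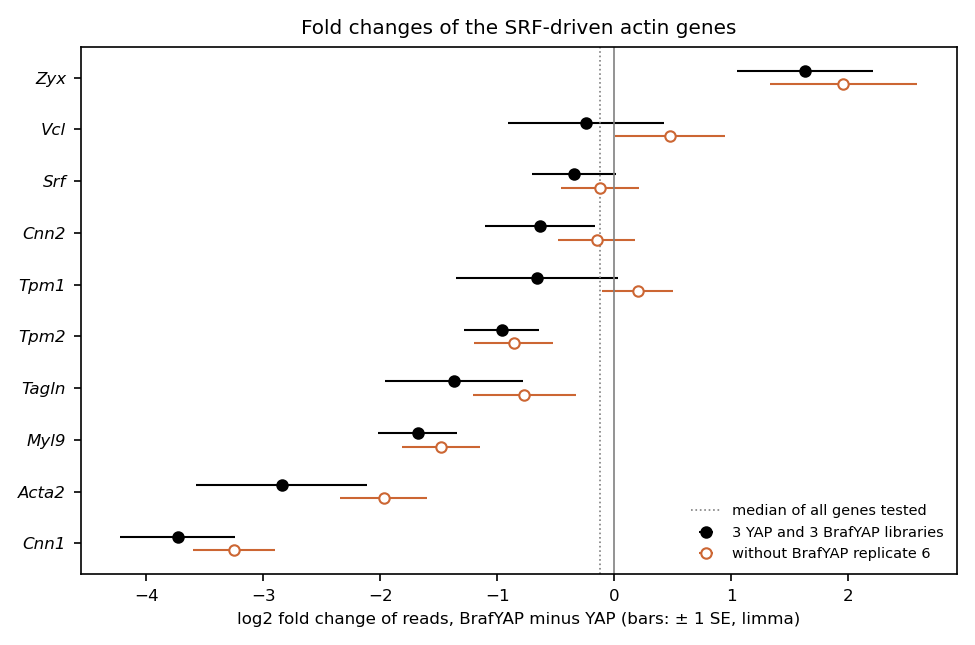
log2 fold change of scaled reads, BrafYAP minus YAP, for each member with its SE from limma, with all libraries (filled) and without BrafYAP replicate 6 (open). Cnn1, Acta2 and Myl9 stay well below 0 without that library, at -3.25, -1.97 and -1.48, whereas Tpm1 and Vcl move to 0.20 and 0.48.

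BrafYAP replicate 6 was the lowest of the 6 libraries for 9 of 10 members, against 31% of all genes tested, and Zyx was the exception. Among the BrafYAP libraries alone it was the lowest for 10 of 10, against 47.4% of all genes. The gap was uneven. Acta2, Tpm1 and Vcl had 6.11, 5.91 and 4.51 times as many reads in the mean of BrafYAP replicates 1 and 2 as in replicate 6, whereas Myl9 and Tpm2 had 1.52 and 1.23 times as many. The members that separated the genotypes best were therefore not always those that set replicate 6 apart. Averaged over the members, centred log2 reads were 0.43, 0.72 and 0.48 in YAP replicates 1, 2 and 3 and -0.12, 0.01 and -1.51 in BrafYAP replicates 1, 2 and 6, while the median of all genes lay between -0.08 and 0.13 in each library.

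Levels between genes need the gene's length, so exonic length was used to recompute TPM, each transcript's share of a library after division by length. In YAP cells the order was Tpm1 (1029 ± 169 TPM), Cnn2 (809 ± 228), Acta2 (649.7 ± 198), Tpm2 (268 ± 87.9), Myl9 (112 ± 25.6), Vcl (104 ± 46.3), Tagln (101 ± 46.0), Zyx (64.8 ± 44.6), Cnn1 (20.3 ± 3.64) and Srf (5.04 ± 0.901), SD with n = 3. The ranges of Tpm1, Cnn2 and Acta2 overlapped from one to the next, as did those of Myl9, Vcl, Tagln and Zyx. In BrafYAP cells Tpm1 (871 ± 583 TPM) and Cnn2 (574 ± 266) stayed at the top and overlapped each other. Zyx came next at 182 ± 63.9 TPM and overlapped with Tpm2 (136 ± 17.6), which overlapped with Acta2 (119.7 ± 82.6). Vcl (104 ± 67.9), Tagln (43.5 ± 24.8) and Myl9 (36.0 ± 8.45) followed, each overlapping the next. Srf (4.14 ± 1.08) and Cnn1 (1.71 ± 0.899) were last, with Cnn1 below Srf in BrafYAP and above it in YAP cells.

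The cofactors of SRF gave no separation. Of 6 measured, 0 had an unadjusted p under 0.05 in either direction, and their median log2 fold change on scaled reads was -0.34. On scaled reads, the actin-sensing cofactors Mkl1 and Mkl2 (MRTF-A and MRTF-B) had log2 fold changes of -0.54 (SE 0.53, limma adjusted p = 0.582) and -0.77 (SE 0.36, limma adjusted p = 0.285). Myocd, the muscle-restricted myocardin, was near the detection limit, with 45, 104 and 13 scaled reads in YAP and 47, 52 and 0 in BrafYAP replicates 1, 2 and 6. The TCF genes Elk1 and Elk3 had log2 fold changes of 0.35 and 0.36 on log2(value + 1) (limma adjusted p = 0.50 and 0.401). On scaled reads they had 0.72 and 0.65 (limma adjusted p = 0.49 and 0.367). Elk4, the other TCF gene, had -0.13 on scaled reads (limma adjusted p = 0.839).

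Other actin cytoskeleton targets of SRF were set apart mainly by BrafYAP replicate 6. The median over the list of centred log2 reads was 0.27 to 0.40 in the YAP libraries, 0.08 and 0.25 in BrafYAP replicates 1 and 2, and -1.19 in replicate 6. Of 25 measured, 20 had a negative and 5 a positive log2 fold change on scaled reads, with a median of -0.54, and 3 were lower and 0 higher at an unadjusted p under 0.05, near the 10.5% lower among all genes. Cald1, the actin-binding caldesmon, had 16990.4, 11741 and 13101 scaled reads in YAP and 6861, 8669 and 1315 in BrafYAP replicates 1, 2 and 6. Its groups were separate (log2 fold change -0.88 on log2(value + 1), SE 0.31, limma adjusted p = 0.182, and -1.69 on scaled reads, limma adjusted p = 0.232). The others, Lmod1 (an actin nucleator of smooth muscle) and Lima1 (an actin cross-linker), were named after their values were seen. They had log2 fold changes of -2.21 and -0.84 on scaled reads (limma adjusted p = 0.139 and 0.162).

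The other structural genes of this list named here did not pass the test. Actb and Actg1, the cytoplasmic actins, had log2 fold changes of -0.23 and -0.10 (limma adjusted p = 0.809 and 0.912), the latter 0.02 after median-ratio rescaling. Actn1 (alpha-actinin), Flna (filamin A) and Myh9 (nonmuscle myosin heavy chain) had -0.46, -0.93 and -0.73 on log2(value + 1) (limma adjusted p = 0.305, 0.401 and 0.470). On scaled reads they had -0.93, -0.95 and -0.97. Mylk, the kinase of Myl9, had -1.02 (limma adjusted p = 0.432) and the enteric actin Actg2 had 0.05 (limma adjusted p = 0.983), both on scaled reads. BrafYAP replicate 6 was the lowest library for 17 of these 25 genes, against 31% of all genes tested.

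The immediate-early genes controlled by SRF and TCF were mixed. Of 7 measured, 5 had a positive and 2 (Fosb and Egr2) a negative log2 fold change on scaled reads, with a median of 0.78. At an unadjusted p under 0.05, 3 were higher and 0 lower, where 9.68% of all genes were higher on that scale. The median over the list of centred log2 reads was -0.66, 0.64 and -0.63 in YAP replicates 1, 2 and 3 and 0.15 to 0.76 in the BrafYAP libraries, so YAP replicate 2 lay within the BrafYAP range. Egr1, a zinc finger factor of the ERK response, had 5393, 5865 and 3489 scaled reads in YAP and 11533, 14403 and 20916 in BrafYAP replicates 1, 2 and 6. Its groups were separate, and replicate 6 was the highest (log2 fold change 1.63, SE 0.34, limma adjusted p = 0.0863). It passed the threshold without YAP replicate 2 (limma adjusted p = 0.0485). Fos had a log2 fold change of 0.34 (limma adjusted p = 0.543). The other two were Ier2 and Junb, named after their values were seen, at 2.98 and 2.95 (limma adjusted p = 0.175 and 0.236), and both were lowest in YAP replicate 1. BrafYAP replicate 6 was the lowest library for 1 of the 7, against 31% of all genes tested.

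Targets shared by YAP and SRF were lowest in BrafYAP replicate 6 for 3 of 3, against 31% of all genes tested. YAP replicate 1 was also low. The median over the list of centred log2 reads was -1.74, 1.29 and -0.02 in YAP replicates 1, 2 and 3. It was 1.65, 1.63 and -2.70 in BrafYAP replicates 1, 2 and 6. Ctgf, a secreted matrix protein gene, had 18508, 88467 and 33819.8 scaled reads in YAP and 241859, 393471 and 10776 in BrafYAP replicates 1, 2 and 6. BrafYAP replicates 1 and 2 were above all YAP libraries and replicate 6 was below them (log2 fold change 1.40, limma adjusted p = 0.581). Cyr61, of the same family, had 11402, 129568 and 45862 scaled reads in YAP and 145757, 144201 and 7156 in BrafYAP replicates 1, 2 and 6. Its log2 fold change was 0.39 (limma adjusted p = 0.897). Leaving out YAP replicate 1 gave -0.53 for it and leaving out BrafYAP replicate 6 gave 1.83. Ankrd1, a muscle ankyrin repeat gene, had 7 reads in replicate 6 against 687 to 1079.9 in the other 5 libraries. Its log2 fold change was -0.85 on log2(value + 1) (limma adjusted p = 0.413) and -2.41 on scaled reads (limma adjusted p = 0.434).

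**Figure D4:**
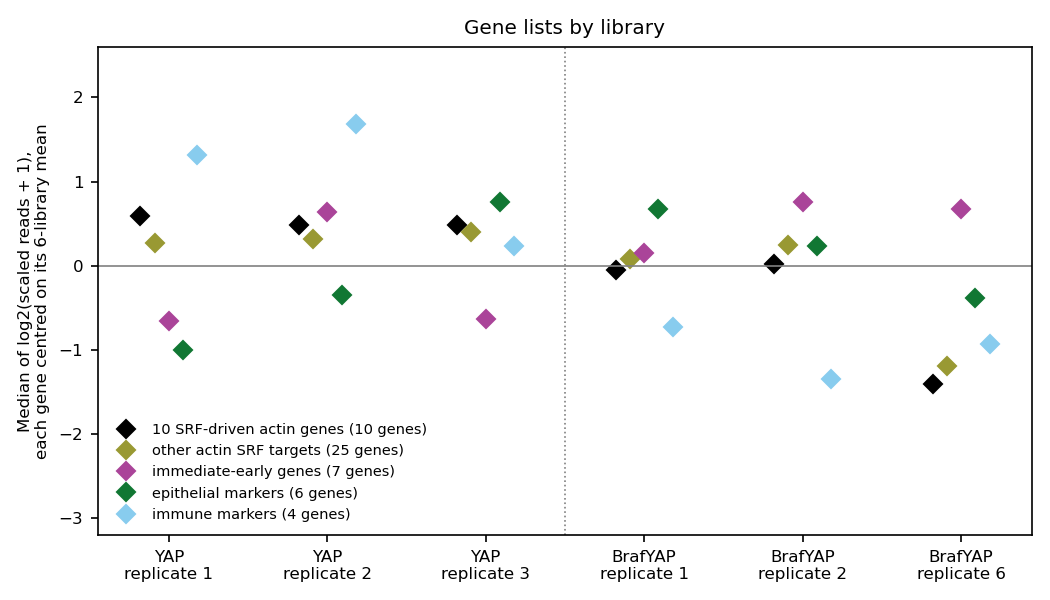
Median over each gene list of log2(scaled reads + 1), each gene centred on its mean over the 6 libraries, for 5 lists (colors) in each library. The 10 members and the 25 other actin targets are lowest in BrafYAP replicate 6, at -1.41 and -1.19, where the 7 immediate-early genes stand at 0.68.

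Acta2, Tagln, Myl9 and Cnn1 are also genes of smooth muscle, pericytes and myofibroblasts, so markers of other cell types were read in the same libraries. The 11 smooth muscle and pericyte markers summed to 5361 to 6203 scaled reads in YAP and 4028 to 6317 in BrafYAP libraries, ranges that overlap. This sum is carried by abundant genes such as Mcam (2148 to 3630.5 reads). The median over the list of centred log2 reads was -0.06 to 0.40 in YAP libraries and -0.31, -0.17 and 0.69 in BrafYAP replicates 1, 2 and 6, so replicate 6 was the lowest library by the sum and the highest by the median. The markers differed in direction there. Kcnj8, a pericyte potassium channel gene, had 503 reads in replicate 6 against 2 to 29.8 in the other libraries. Cspg4, of the same list, had 298 against 1014 to 2019.7. Replicate 6 was the lowest library for 3 of the 11 markers (Mcam, Cspg4 and Lmod1), against 31% of all genes tested. The defining smooth muscle myosin Myh11 had 9 to 43 reads in any library (log2 fold change -0.64, limma adjusted p = 0.671), and the muscle filament gene Des had 9 to 114 (1.62, limma adjusted p = 0.261). The list had 0 genes higher and 1 lower at an unadjusted p under 0.05, namely Lmod1, 1 of 3 genes it shares with the other actin targets. Fibroblast markers summed to 14166 to 27933 in YAP and 11362 to 28106 in BrafYAP libraries. At that unadjusted p, 2 of 8 tested were higher (Dcn and Lum) and 2 lower (Col1a1 and Thy1). Among all genes on scaled reads, 9.68% were higher and 10.5% lower at the same p.

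Immune markers summed to 13718 to 50618 scaled reads in YAP and 3931 to 11252 in BrafYAP libraries. Most of the sum was Csf1r, with 11522 to 44702 reads in YAP and 2767 to 10145 in BrafYAP libraries. At an unadjusted p under 0.05, 3 of 4 tested were lower (Ptprc, Csf1r and Adgre1), against 10.5% of all genes on scaled reads. Past the adjusted threshold there were 0. The groups overlapped for Cd3e, at 15 to 43 reads in YAP and 1 to 31 in BrafYAP libraries. Skeletal muscle markers were low, at 91 to 348 reads in YAP and 19 to 73 in BrafYAP libraries. Of the 6 listed, 1, Myh1, was at 0 in all libraries, and only 2 reached the minimum for a test. These 2, Acta1 and Mylpf, were lower at an unadjusted p under 0.05, against the same 10.5% of all genes. Mylpf had only 13 to 44 reads. The part of immune and muscle cells in the members' levels was not tested.

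Endothelial markers summed to 255 to 3325 scaled reads in YAP and 122 to 1718 in BrafYAP libraries, with 0 of 5 past an unadjusted p under 0.05. Epithelial markers were the most abundant list, at 153903 to 493948 in YAP and 209867 to 567375 in BrafYAP libraries. Of 6 tested, 1, Epcam, was higher at that unadjusted p, where 9.68% of all genes were higher on scaled reads. Thyroid follicular markers summed to 13915 to 32008 in YAP and 7524 to 28627 in BrafYAP libraries, and Tshr and Duox2 were each at 0 in at least 1 library. BrafYAP replicate 6, the lowest library for most members, had more thyroid marker reads (28627) than BrafYAP replicates 1 and 2 (12878 and 7524) and more endothelial marker reads (1718 against 212 and 122).

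**Figure D5:**
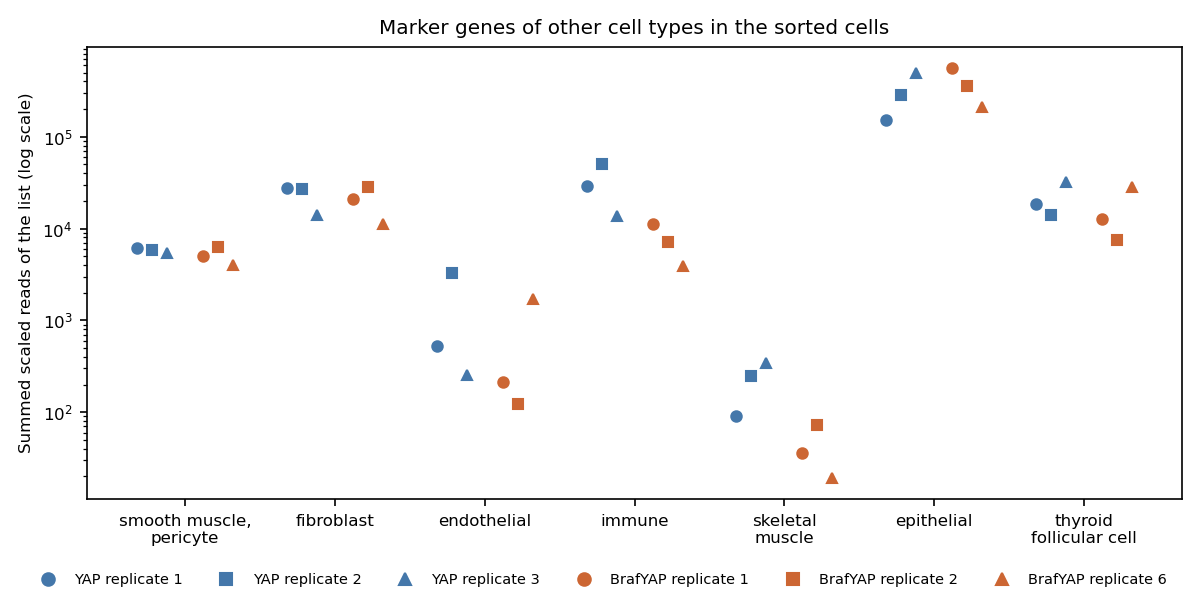
Summed scaled reads of 7 marker lists in each library (log axis), with a symbol per replicate. Immune and skeletal muscle sums are higher in every YAP library than in every BrafYAP library, whereas the smooth muscle and pericyte sums overlap.

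The genes whose pattern over the 6 libraries was most like the members' mean profile were found by the root mean square difference of centred log2(value + 1). They were Ppp1r18 (0.07), Rapgef3 (0.09), Wisp1 (0.10), Tubb6 (0.11) and Tmem98 (0.13). Ppp1r18, a phosphatase subunit that binds actin, had deposited values of 13.9, 15.5 and 12.2 in YAP and 10.6, 11.1 and 3.75 in BrafYAP replicates 1, 2 and 6. Like the averaged profile it was chosen to match, it was lowest at replicate 6. Single members differ from that average, and for Cnn1, Myl9, Tpm2 and Zyx the step between the genotypes was larger than the one at replicate 6. The 5 genes had log2 fold changes of -0.76, -0.64, -0.71, -0.73 and -0.71, in that order, with limma adjusted p-values of 0.30 to 0.359.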

How the data were processed

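Kate-positive cells of 3 YAP and 3 BrafYAP libraries were amplified by 12 cDNA and 8 library PCR cycles and sequenced as 50-nt paired reads. Alignment by the authors used STAR 2.6.1d and mm10. They quantified reads on Ensembl release 95 with Partek and deposited TPM with 0.0001 added. Products of low deposited values and genomic span, introns included, were whole multiples of 1 step in 71.7 to 76.0% of cases (within 0.05, under 200 reads), so reads were recovered as (value - 0.0001) × span / step, with GENCODE M21 loci (34658 symbols at 1 locus). Partek can divide reads between genes, and PCR duplicates are not marked, so depth covers counting error only. The labels do not name the mice behind each library, and p-values measure the spread between libraries.

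TPM are not counts, so limma 3.58.1 (R 4.3.3, eBayes with a trend, two-sided) compared log2(value + 1) of genes whose mean reached 1, and p-values were adjusted over all genes by Benjamini-Hochberg with a threshold of 0.05. This scale understates low genes. Genes with lower means were read from log2(scaled reads + 1), for means of at least 10 reads. On the deposited values 9 of 10 members passed the minimum, and 10 of 10 on reads. The fit was tested on simulated data. Named genes were the members, a set of cofactors and targets listed by name, list genes past the threshold and the 5 most alike genes. Any other gene was named after its values were seen. The members and lists were chosen with earlier results of these data known. One related gene list and the name of one allele are not reported here. Samples were grouped by title, and no batch was given.

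Alternatives were other pseudocounts, minimum means and normalizations, array weights, eBayes with no trend, a replicate block, TPM with the exonic length, the length division undone and each library left out. Leaving out YAP replicate 1 together with BrafYAP replicate 6 was added after seeing the data.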

Additional observations from a re-analysis of the deposited data

How the results depend on the processing

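The limits are the small groups and the low level of Cnn1 in BrafYAP cells. The call of Cnn1 was lost, with its log2 fold change and limma adjusted p, at a pseudocount of 0.1 (-3.05, 0.0633) or 0.0001 (-3.76, 0.0845), after median-ratio rescaling (-1.31, 0.0517), without a trend (-1.38, 0.0579), without a filter (-1.38, 0.134), with the length division undone (-3.73, 0.0547) and without YAP replicate 1 and BrafYAP replicate 6 (-1.38, 0.0949). The members past the threshold were then 0, as with a minimum mean of 10, which left 5 members tested, 3 of them at an unadjusted p under 0.05. Array weights gave 5 members, with Acta2 at -1.58, Myl9 at -0.98, Tpm2 at -1.04 and Zyx at 1.76, and 0.02 for Tpm1, 0.02 for Vcl and 0.56 for Myocd. The same weights put Egr1 (1.73), Elk3 (0.60) and Ctgf (2.80) past the threshold (limma adjusted p = 0.00825, 0.0301 and 0.0353). For Acta2 they moved the unadjusted limma p from 0.00382 to 0.0027, but the adjusted p from 0.0953 to 0.0239. More genes across the whole test therefore had low p-values. The share of all genes called is not given for these settings or with libraries left out. Counts of members under them have no background here. Without both libraries Tpm1 was 0.28 and Vcl 0.05. Actg1 was 0.02 after median-ratio rescaling and Actg2 0.00 without a filter. The cause was not tested.

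Replicate numbers 1 and 2 recur in both groups, and the labels do not say whether equal numbers pair libraries. Deviations from the group means correlated at -0.05 and 0.06 across genes. This cannot settle the question, since pairing need not leave a shared effect in most genes. With the replicate block 0 members passed, Cnn1 was at -1.39 (limma adjusted p = 0.237), and the signs turned for Tpm1 (0.22), Vcl (0.53), Mkl1 (0.18), Elk4 (0.14), Actb (0.43), Actg1 (0.49), Actg2 (-0.09) and Myh9 (0.14).

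Leaving out each library in turn gave -1.45 to -1.26 for Cnn1 (limma adjusted p = 0.0362 to 0.217, past the threshold only without YAP replicate 2), 0 to 1 members past the threshold and 4 to 5 at an unadjusted p under 0.05. The ranges were -1.09 to 0.20 for Tpm1, -0.45 to 0.35 for Vcl, -1.06 to 0.15 for the ratio of Tpm2 to Tpm1, -2.58 to 0.28 for Myocd, -0.35 to 0.03 for Elk4, -0.57 to 0.19 for Actb, -0.41 to 0.20 for Actg1, -0.87 to 0.82 for Actg2 and -0.53 to 1.83 for Cyr61. Acta2, Tagln, Myl9, Cnn2, Tpm2, Srf and Zyx kept their direction in each of these fits, and the members' median ranged from -1.01 to -0.42.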
